A study of Mus musculus with 3 samples.

Results

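The 37 genes described here are the replication checkpoint and DNA repair genes of a listed set, out of 55824 gene symbols in the series. They were taken by name and not by a cut on their values, though the list was chosen with earlier results of these data known. They fall into 13 genes of the ATR axis, 7 of the ATM axis, 11 of homologous recombination, 4 of the Fanconi pathway, and Msh6 and Parp1. All 37 had a row in each assay. The series compares Rrm2-knockdown L929 cells with controls. L929 is an established line of mouse connective tissue fibroblasts, and no other allele or agent is named for either group. Per the labels' protocols, single cells were drawn into a capillary and their RNA was reverse transcribed with oligo dT priming and template switching. The first assay, CBTi-seq, is 1 sample with 10 columns named knock and 10 named control. The second, which targets the 3' ends of transcripts, is 1 sample labelled knock and 1 labelled control, with 8 numbered columns each. The knockdown agent, the number of cultures behind each group, and whether a 3' column is 1 cell were not given in the sources used here. Columns carry names and no cell barcodes, so barcodes shared between libraries could not be counted.

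When a replication fork stalls, single-stranded DNA coated by replication protein A recruits the kinase ATR, which acts through CHK1 to hold the cell cycle and protect the fork. Broken ends are sensed by the MRE11, RAD50 and NBN complex, which activates the kinase ATM, and can be repaired by homologous recombination, in which BRCA1, PALB2 and BRCA2 act together. RRM2 is a subunit of ribonucleotide reductase, the enzyme that makes deoxynucleotides, and a shortage of deoxynucleotides is a classical way to stall forks.

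Promoter sequences of 5 of the genes are shown because the values below turn on them: Brca1, Rad51ap1 and Clspn stood out in at least 1 assay, Topbp1 lay on opposite sides of 0 in the assays, and Brca2 lay just inside the fold used. Each is the 250 bases before the gene's RefSeq start in GRCm38.p6, 5' to 3' on the gene's strand. Those of Clspn and Topbp1 are shown up to the GENCODE start of the gene, which lies earlier, and are 205 and 138 bases long. Capitals mark E2F words (TTTCCCGC, TTTCGCGC, TTTGCCGC or TTTGGCGC) and CCAAT words, searched on both strands.
Brca1, chr11:101551956-101552205, minus strand: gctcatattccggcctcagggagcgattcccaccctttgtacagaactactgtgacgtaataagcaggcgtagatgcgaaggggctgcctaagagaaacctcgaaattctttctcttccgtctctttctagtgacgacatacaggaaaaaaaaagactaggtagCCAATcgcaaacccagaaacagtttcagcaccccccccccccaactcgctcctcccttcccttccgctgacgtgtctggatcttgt
Rad51ap1, chr6:126939588-126939837, minus strand: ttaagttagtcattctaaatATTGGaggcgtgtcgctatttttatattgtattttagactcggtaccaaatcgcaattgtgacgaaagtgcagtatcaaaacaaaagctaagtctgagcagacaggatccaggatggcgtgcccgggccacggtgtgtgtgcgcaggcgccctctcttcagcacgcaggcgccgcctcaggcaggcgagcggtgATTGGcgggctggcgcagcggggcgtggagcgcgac
Clspn, chr4:126556730-126556934, plus strand: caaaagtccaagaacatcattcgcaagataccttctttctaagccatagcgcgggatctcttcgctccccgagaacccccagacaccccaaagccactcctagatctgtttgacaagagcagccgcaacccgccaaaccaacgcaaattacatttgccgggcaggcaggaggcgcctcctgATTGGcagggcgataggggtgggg
Topbp1, chr9:103305077-103305214, plus strand: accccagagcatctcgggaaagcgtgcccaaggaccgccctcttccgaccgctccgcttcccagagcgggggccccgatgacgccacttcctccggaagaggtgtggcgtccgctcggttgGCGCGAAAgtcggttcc
Brca2, chr5:150522371-150522620, plus strand: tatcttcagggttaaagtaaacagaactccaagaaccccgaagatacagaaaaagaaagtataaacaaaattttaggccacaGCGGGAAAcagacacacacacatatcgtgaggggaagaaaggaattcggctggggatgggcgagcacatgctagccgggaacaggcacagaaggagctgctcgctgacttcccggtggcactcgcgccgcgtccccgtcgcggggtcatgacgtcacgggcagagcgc

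Of the 37 genes, 28 had a promoter in the RefSeq table. An E2F word was found in 5 of these 28 (17.9%), namely Topbp1, Brca2, Bard1, Chek2 and Mdc1, against 2.16% of all 27025 promoters of the same length. CCAAT was found in 14 of 28 (50.0%), against 37.5% of all promoters, with 1 word in Brca1, 2 in Rad51ap1 and, in the bases shown, 1 in Clspn. The word TTTGAA, the core of the cell cycle homology region, was found in 3 of 28 (10.7%), against 18.3% of all. No word lies within another, though neighbouring words may share end letters. These matches describe letters in a window and are not binding sites.

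Counts summed to 3507123 over the CBTi-seq knock columns (153051 to 735871 a column) and 3861881 over the control columns (41570 to 846819). The 3' library labelled knock held 9162364 counts (814960 to 1973137 a column) and the library labelled control 7067278 (399393 to 2496457). A count of 3 over a group corresponded to 0.855 CPM (the usual scaled unit, counts over the group's total of all gene counts) in CBTi-seq knock columns, 0.777 in CBTi-seq control columns, 0.327 in the 3' library labelled knock and 0.424 in the one labelled control. In CBTi-seq the highest count of any gene in a column lay between 399 and 638, whereas the listed genes reached at most 121 in a knock column and 145 in a control column. Columns of 1 sample are not replicates, so no difference below was tested, and every interval is a 95% interval that covers counting error only.

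The targeted gene went with the names in CBTi-seq and against the labels in the 3' libraries. Rrm2 stood at 350.1 CPM in the CBTi-seq knock columns, against 480.9 CPM in the control columns, a log2 ratio of -0.46 (-0.56 to -0.35). Its knock columns ran from 283 over a median of 362 to 489 CPM, and its control columns from 356 over 471 to 652 CPM. These overlapped. In the 3' tables the library labelled knock held 148.1 CPM of Rrm2, against 39.1 CPM in the library labelled control, a log2 ratio of 1.92 (1.74 to 2.12). Every 3' direction below therefore rests on labels that Rrm2 goes against. Fibroblast markers were abundant as a sum in every group. Their summed level by column was 1811 to 3195 CPM in CBTi-seq knock columns and 1966 to 3327 in control columns, with 7 of 8 genes present. In the 3' libraries it was 3035 to 3271 CPM in the one labelled knock and 1678 to 1946 in the one labelled control, with all 8 genes present. A mean level of 20 CPM was reached by all 7 in CBTi-seq and by 4 of the 8 in the 3' tables. Of the 7, 3 were lower by 1.5-fold in knock columns, where 10.2% of all genes at that level were, and 0 higher, where 3.54% were. Of the 4, 3 were higher in the library labelled knock, where 30.5% were, and 0 lower, where 15% were. Among markers of other cell types, Ptprc and Cd3e of leukocytes had no row in CBTi-seq and no count in either 3' library. The epithelial marker Cdh1 had no row in CBTi-seq but stood at 110.5 CPM in the 3' library labelled knock and 188.0 CPM in the one labelled control. The 5 leukocyte markers, 2 of them with counts, summed by column to 128.4 to 182.9 CPM in the 3' library labelled knock and 56.1 to 115.2 CPM in the one labelled control. The 5 epithelial markers summed to 96.8 to 180.9 CPM and 139.0 to 251.6 CPM in the same order, with counts for 4 and 2 of the 5, and the 5 endothelial markers, all with counts, to 25.1 to 51.5 CPM and 23.2 to 45.2 CPM. In CBTi-seq the leukocyte markers summed to 7.99 to 34.9 CPM in knock columns and 0 to 166.5 CPM in control columns, and the epithelial and endothelial lists to at most 5.05 and 0 CPM in knock columns and 14.5 and 3.93 CPM in control columns. The part of these markers in the results below was not tested.

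In CBTi-seq the checkpoint and repair genes as a whole were close to level between knock and control cells. Their summed RNA was 1607 CPM in the knock columns and 1605 CPM in the control columns. By column it ran from 928.4 over a median of 1502 to 2095 CPM in knock columns. In control columns it ran from 1220 over 1586 to 1880 CPM. The highest knock value was that of column 10, the deepest knock column. A gene was read where its mean level was at least 20 CPM, which 29 of the 37 reached, and was called apart at 1.5-fold or more. Of the 29, 2 were higher by that fold in the knock columns, Brca1 and Rad51ap1, where 3.54% of all 8391 genes at this level were. The protein kinase gene Wee1 was lower by that fold, 1 of 29, where 10.2% of all genes were. The other 26 lay within it. Brca1 and Fancd2 reached the limit through the knock columns alone, and the other 27 in each group. With single columns left out, the number higher was 1 without knock column 10 or control column 3, 4 or 6, and up to 5 without control column 8. The median log2 ratio of the 29 was -0.01, beside -0.05 over all genes, with 14 above 0, where 44.7% of all genes were, and 15 below 0, where 55.3% of all genes were. At 2-fold, 0 of the 29 were higher and 0 lower, where 0.536% and 2.42% of all genes were. None of the 29 had every knock column above or every knock column below every control column, which 0.0596% and 0.0715% of all genes did.

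**Figure D1:**
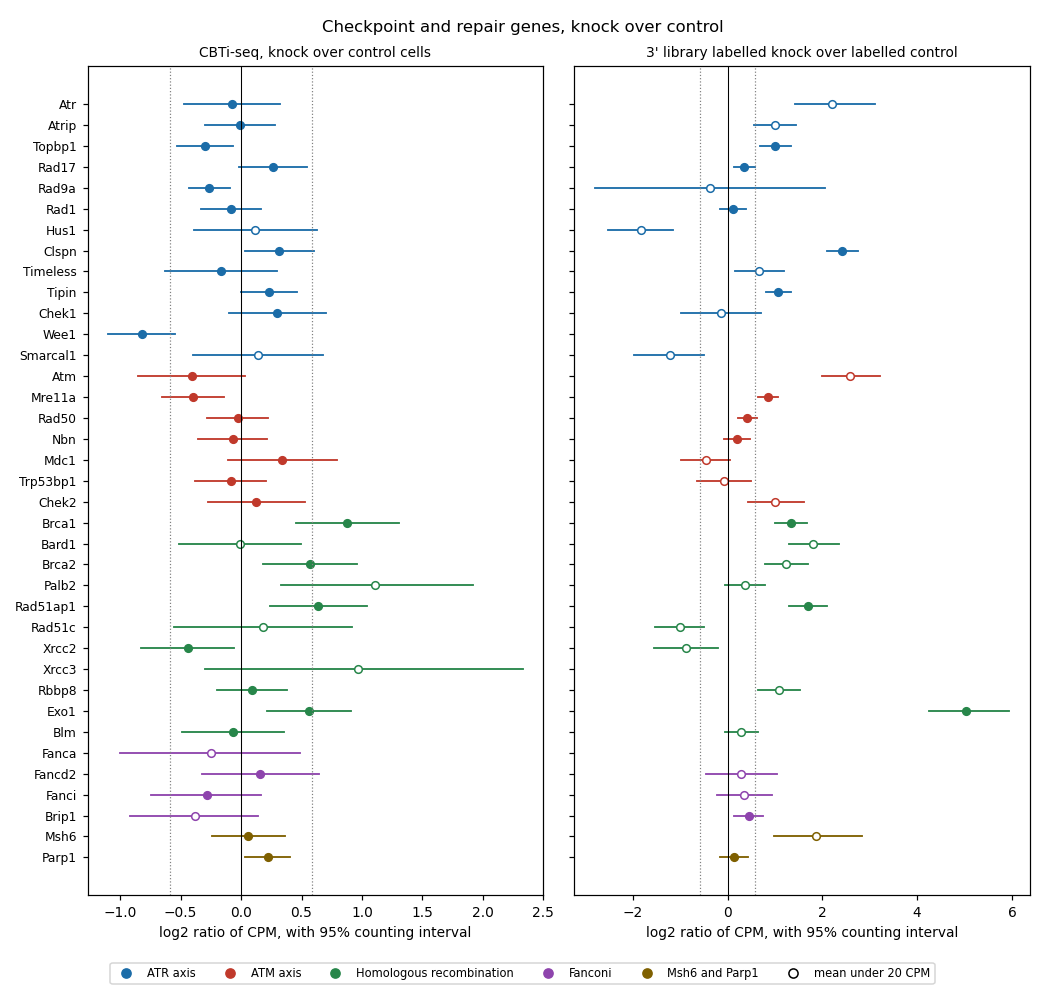
Log2 ratio of CPM for each of the 37 genes, grouped by role, with 95% counting intervals (bars), in CBTi-seq (left, knock over control) and in the 3' tables (right, labelled knock over labelled control); the scales differ, dotted lines mark 1.5-fold and open points a mean level under 20 CPM. In CBTi-seq only Brca1, Rad51ap1 and Wee1 among the filled points lie past the dotted lines, whereas in the 3' tables all 13 filled points lie above 0. Of these 13, 5 reached 20 CPM through the library labelled knock alone.

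The same genes stood higher in the 3' library labelled knock. Their summed RNA was 779.4 CPM there, with columns between 709.9 and 831.3 CPM, against 438.9 CPM in the library labelled control, with columns between 399.6 and 516.3 CPM. The columns did not overlap. Only 13 of the 37 genes reached 20 CPM, and all 13 had a log2 ratio above 0, where 58.8% of all 5701 genes at this level did, with 0 below 0, where 41.2% did. Of these, 7 were higher by 1.5-fold or more, where 30.5% of all genes were, and 0 were lower by that fold, where 15% of all genes were. At 2-fold, 6 were higher, where 17.3% of all genes were, and 0 lower, where 5.68% were. The 7 at 1.5-fold were Exo1, Clspn, Rad51ap1, Brca1, Tipin, Topbp1 and Mre11a. Of the 13, 5 reached the limit through the library labelled knock alone, all of them among the 7, so these counts are not support for a direction of the list. The other 8 were at 20 CPM or more in each library, with Tipin and Mre11a the 2 past the fold. The median log2 ratio of the 13 was 0.85, beside 0.18 over all genes, and it too includes the 5 genes that the limit let in on 1 side. Among the other 8, the log2 ratios ran from 0.12 for Rad1 to 1.07 for Tipin. In 4 of the 13, every column of the library labelled knock lay above every column of the library labelled control, where 21.2% of all genes did, and in 0 of them every column lay below, where 8.02% did. The 4 were Clspn, Rad51ap1, Exo1 and Mre11a, of which only Mre11a reached the limit in each library.

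The split of all genes moved with the scaling, and so did small ratios. Of all 3' genes read, 1738 were higher and 853 lower by 1.5-fold, while TMM factors, which moved all ratios by -0.15, gave 1409 higher and 1206 lower. The count of listed genes higher was again 7 with those factors, but the ratios of Rad1 and Parp1 (0.12 and 0.14) are smaller than that shift and turn below 0. In CBTi-seq 297 genes were higher and 857 lower, while TMM factors, which moved ratios by 0.08, gave 453 and 662. With those factors 4 listed genes were higher by 1.5-fold and not 2, since Brca2 and Exo1 then pass the fold, and the median of the 29 was 0.07.

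The ATR axis differed little in CBTi-seq, whereas in the 3' tables it was more abundant in the library labelled knock. Its summed level was 724.2 CPM in CBTi-seq knock columns and 770.1 CPM in control columns, a log2 ratio of -0.09 (-0.17 to -0.01). The median log2 ratio of its 11 genes that reached 20 CPM was -0.08, which turns positive with TMM factors. By the 3' method the sum was 277.4 CPM in the library labelled knock and 155.8 CPM in the library labelled control, a log2 ratio of 0.83 (0.73 to 0.94), and the median over 5 genes was 1.01, with 2 of the 5 past the limit through the library labelled knock alone.

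Wee1, the kinase that restrains CDK1 and so entry into mitosis, had the lowest CBTi-seq ratio of the listed genes that reached 20 CPM. The gene lies on the plus strand of chromosome 7 (110122046 to 110143286 in GRCm38), with 1600010M07Rik overlapping it on the other strand. The knock columns ran from 13.3 over a median of 48.9 to 79.8 CPM, and the control columns from 37.9 over 75.0 to 147.3 CPM. Both ranges overlapped, but the lowest values were in the knock columns and the highest in the control columns. Over the summed columns Wee1 stood at 47.9 CPM in knock and 84.7 CPM in control, a log2 ratio of -0.82 (-1.10 to -0.55). The 3' tables held 0 counts of Wee1 over all 16 columns, which by the floor of 3 counts allows up to 0.327 CPM in the library labelled knock and 0.424 CPM in the library labelled control.

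Clspn encodes claspin, the adaptor through which ATR phosphorylates CHK1. It lies on the plus strand of chromosome 4 (126556935 to 126593903), with Gm12936 overlapping it on the other strand and Mir7119 on the same one, and its promoter as shown above holds 1 CCAAT word. In the 3' library labelled knock the columns ran from 54.9 over a median of 69.9 to 84.4 CPM, against 4.49 over 14.5 to 21.9 CPM in the library labelled control. The columns were far apart, and the log2 ratio was 2.42 (2.10 to 2.74), from 71.7 CPM in the library labelled knock and 13.4 CPM in the library labelled control. In CBTi-seq the columns overlapped throughout, with 21.3 over 59.0 to 93.7 CPM in knock columns and 0 over 33.7 to 174.1 CPM in control columns. The highest control value came from a single column, number 8, and the log2 ratio was 0.31 (0.03 to 0.60).

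Topbp1 encodes the protein that switches on the ATR kinase. It lies on the plus strand of chromosome 9 (103305215 to 103350428), and its printed promoter holds 1 E2F word. In the 3' library labelled knock its columns ran from 23.7 over 30.4 to 39.7 CPM, against 1.46 over 13.4 to 37.6 CPM in the library labelled control. All but 1 column of the library labelled control, number 3, lay below every column of the library labelled knock, and the log2 ratio was 1.01 (0.68 to 1.34). In CBTi-seq the direction was the opposite, with 48.4 over 69.2 to 96.2 CPM in knock columns and 54.2 over 83.8 to 312.7 CPM in control columns. These overlapped, and the log2 ratio was -0.30 (-0.53 to -0.07). The highest control value came from column 1, the shallowest, which held 41570 counts in all.

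Tipin, the partner of Timeless in the complex that steadies the fork, ran from 40.1 over 48.5 to 71.1 CPM in columns of the 3' library labelled knock, against 10.0 over 23.3 to 41.6 CPM in the library labelled control. The groups met at their edges, and the log2 ratio was 1.07 (0.81 to 1.33). In CBTi-seq it was 0.23 (0.00 to 0.46). Timeless itself was under 20 CPM in the 3' tables, at 11.02 CPM in the library labelled knock and 6.93 CPM in the library labelled control, and its log2 ratio in CBTi-seq was -0.16 (-0.63 to 0.30).

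Rad9a, Rad1 and Hus1 encode the clamp that Rad17 loads beside the stalled fork, and their ratios lay on different sides of 0. In CBTi-seq Rad9a ran from 116.0 over 128.3 to 190.3 CPM in knock columns and from 48.1 over 159.0 to 214.6 CPM in control columns. These overlapped widely, and the log2 ratio was -0.26 (-0.43 to -0.09). Its 3' counts were 4 in the library labelled knock and 4 in the library labelled control, so no difference was detectable there. Rad1 had log2 ratios of -0.08 in CBTi-seq and 0.12 in the 3' tables, both with intervals that included 0. Hus1 was under 20 CPM in both assays, with 2.84 CPM in the 3' library labelled knock, against 10.0 CPM in the library labelled control. The loader Rad17 stood at 47.5 CPM in the 3' library labelled knock and 37.2 CPM in the library labelled control, a log2 ratio of 0.35 (0.13 to 0.58), beside 0.26 (-0.02 to 0.55) in CBTi-seq.

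The kinases at the head and end of the axis were under 20 CPM in the 3' tables. Atr, the apical kinase, had 90 counts in the library labelled knock and 15 in the library labelled control, 9.82 and 2.12 CPM, with a log2 ratio of 2.21 (1.41 to 3.11). Its CBTi-seq level was 28.5 CPM in knock and 30.0 CPM in control columns, a log2 ratio of -0.08 (-0.48 to 0.32). Chek1, the effector kinase, had a CBTi-seq log2 ratio of 0.30 (-0.10 to 0.70) and of -0.15 (-0.99 to 0.70) in the 3' tables. Atrip, the partner that brings ATR to the fork, was at 53.03 CPM in CBTi-seq knock columns and 53.34 CPM in control columns. Atrip shares its strand and position with Trex1, and how reads of such pairs were split is not given. Smarcal1, a fork remodeller, was under 20 CPM in both assays.

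The ATM axis was close to level in CBTi-seq, whereas in the 3' tables it was more abundant in the library labelled knock. Its sum was 313.9 CPM in CBTi-seq knock columns and 339.0 CPM in control columns, a log2 ratio of -0.11 (-0.23 to 0.01). The 7 genes had a median of -0.07, which turns positive with TMM factors, and none reached 1.5-fold. By the 3' method the sum was 204.3 CPM in the library labelled knock and 135.3 CPM in the library labelled control, a log2 ratio of 0.59 (0.48 to 0.71).

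Mre11a encodes the nuclease of the break-sensing complex and lies on the plus strand of chromosome 9 (14784654 to 14837123), overlapping Ankrd49 on the other strand. In the 3' library labelled knock its columns ran from 51.7 over 64.6 to 75.3 CPM, against 28.8 over 39.0 to 50.1 CPM in the library labelled control. The groups did not overlap, and the log2 ratio was 0.85 (0.63 to 1.07). In CBTi-seq the direction was the opposite, with 20.2 over 60.9 to 95.1 CPM in knock columns and 54.3 over 67.3 to 192.4 CPM in control columns. The ranges overlapped, and the log2 ratio was -0.40 (-0.66 to -0.14). The highest control value was 8 counts in column 1, the shallowest, which held 41570 counts in all.

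The other members of that complex differed less. Rad50, its ATPase, ran from 45.4 over 64.4 to 84.6 CPM in the 3' library labelled knock and from 31.7 over 42.3 to 107.9 CPM in the library labelled control, which overlapped, with a log2 ratio of 0.41 (0.22 to 0.61). For Rad50 the CBTi-seq log2 ratio was -0.03 (-0.28 to 0.23). Nbn had -0.07 (-0.36 to 0.21) in CBTi-seq and 0.19 (-0.09 to 0.47) in the 3' tables. Within the complex the 3' ratios ran from 0.19 to 0.85, and the CBTi-seq ratios from -0.40 to -0.03.

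The kinase Atm was under the level limit in the 3' tables, with a mean of 13.3 CPM. In the 3' library labelled knock its level was 22.7 CPM, against 3.82 CPM in the library labelled control, a log2 ratio of 2.57 (1.99 to 3.21). Every column of the library labelled knock, from 13.5 to 34.5 CPM, lay above every column of the library labelled control, from 0 to 12.2 CPM. Of all genes at 20 CPM or more, 21.2% did so. In CBTi-seq the log2 ratio of Atm was -0.41 (-0.85 to 0.03). The mediators Mdc1 and Trp53bp1 and the effector kinase Chek2 had CBTi-seq log2 ratios of 0.34, -0.09 and 0.13, all with intervals that included 0, and were under 20 CPM in the 3' tables.

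As a sum, the 11 listed homologous recombination genes were somewhat more abundant over the CBTi-seq knock columns, though single columns overlapped. In the 3' tables they were more abundant in the library labelled knock. Their summed level was 313.6 CPM in CBTi-seq knock columns and 254.3 CPM in control columns, a log2 ratio of 0.30 (0.18 to 0.43). The 7 genes at 20 CPM or more had a median log2 ratio of 0.56, with 5 above 0, where 44.7% of all genes were. By 1.5-fold 2 were higher, Brca1 and Rad51ap1, where 3.54% of all genes were. Brca1 reached 20 CPM through the knock columns alone, and of the 6 at that level in each group 1 was higher. The 3' sum was 226.4 CPM in the library labelled knock and 93.4 CPM in the library labelled control, a log2 ratio of 1.28 (1.15 to 1.41). The 3 genes that reached 20 CPM there, Brca1, Exo1 and Rad51ap1, did so through that library alone, so their direction was set by the limit, and it also rests on the labels that Rrm2 goes against. In CBTi-seq the columns of the listed sum overlapped. They ran from 161.5 over 287.7 to 475.6 CPM in knock columns and from 92.5 over 259.0 to 353.6 CPM in control columns. The highest knock value was that of column 10, the deepest knock column, with 735871 counts. A summed level weighs deep columns more, and how far the ratio of the sums rests on column 10 was not tested. Among 22 other genes of homologous recombination, 13 reached 20 CPM in CBTi-seq, with a median log2 ratio of -0.04. Of these, 6 were above 0 and 7 below, where 44.7% and 55.3% of all genes were. The sum of the 22 had a CBTi-seq log2 ratio of 0.07 (0.01 to 0.13).

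**Figure D2:**
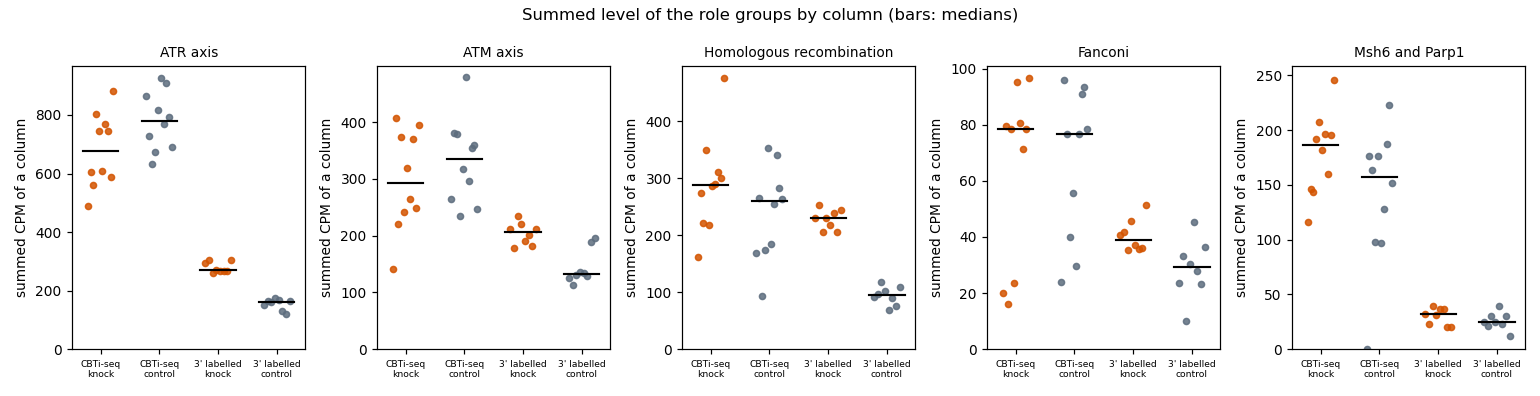
Summed CPM of each role group in every column (points), with medians (bars), for CBTi-seq knock and control columns and the 3' libraries labelled knock and labelled control. In the 3' libraries the homologous recombination sums lie between 204.6 and 252.8 CPM in the one labelled knock and between 68.6 and 117.7 CPM in the one labelled control, while the CBTi-seq columns overlap in every group.

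Brca1, the ubiquitin ligase that directs broken ends to recombination, had a log2 ratio above 0 in both assays. In each it reached 20 CPM through the knock side alone, and its 3' direction rests on labels that Rrm2 goes against. It lies on the minus strand of chromosome 11 (101488764 to 101551955), with no annotated gene overlapping it, and its printed promoter holds 1 CCAAT word and no E2F word. In CBTi-seq the knock columns ran from 13.3 over 34.7 to 54.4 CPM, and the control columns from 0 over 14.9 to 40.2 CPM. All 10 knock columns and 8 of the 10 control columns had a count, and 4 knock columns lay above the highest control column. The log2 ratio was 0.88 (0.46 to 1.31), from 36.2 CPM in knock and 19.7 CPM in control. Its 3' columns ran from 24.9 over 30.6 to 53.1 CPM in the library labelled knock, against 12.2 over 13.6 to 25.0 CPM in the library labelled control. Those ranges touched at 1 column each, and the log2 ratio was 1.33 (1.01 to 1.67).

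Rad51ap1 encodes a DNA-binding protein of homologous recombination and lies on the minus strand of chromosome 6 (126923050 to 126939587), with Gm17808 overlapping it on the other strand. In CBTi-seq it ran from 13.3 over 32.9 to 66.6 CPM in knock columns, against 0 over 22.05 to 56.2 CPM in control columns. The ranges overlapped, and the log2 ratio was 0.64 (0.24 to 1.04). Without knock column 10, the deepest of the knock columns, the log2 ratio was 0.30, under 1.5-fold. Its 3' columns were apart, from 26.4 over 29.8 to 40.5 CPM in the library labelled knock and from 2.50 over 7.99 to 15.8 CPM in the library labelled control, a log2 ratio of 1.69 (1.30 to 2.09).

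Exo1 encodes an exonuclease that lengthens the resected end and also acts in mismatch repair, and it had the highest 3' ratio of the listed genes. It lies on the plus strand of chromosome 1 (175880581 to 175913489). The columns of the 3' library labelled knock ran from 47.1 over 62.9 to 70.3 CPM, against 0 over 0.729 to 3.61 CPM in the library labelled control. Only 4 of the 8 columns of the library labelled control had a count, 13 counts in all, and the log2 ratio was 5.03 (4.24 to 5.95), from 60.0 CPM in the library labelled knock and 1.84 CPM in the library labelled control. In CBTi-seq the difference was far smaller and the columns overlapped, with 15.1 over 46.9 to 71.9 CPM in knock columns and 0 over 26.1 to 50.9 CPM in control columns. The log2 ratio there was 0.56 (0.22 to 0.91), just inside the fold. Without column 2 of the library labelled control the 3' log2 ratio was 6.10.

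**Figure D3:**
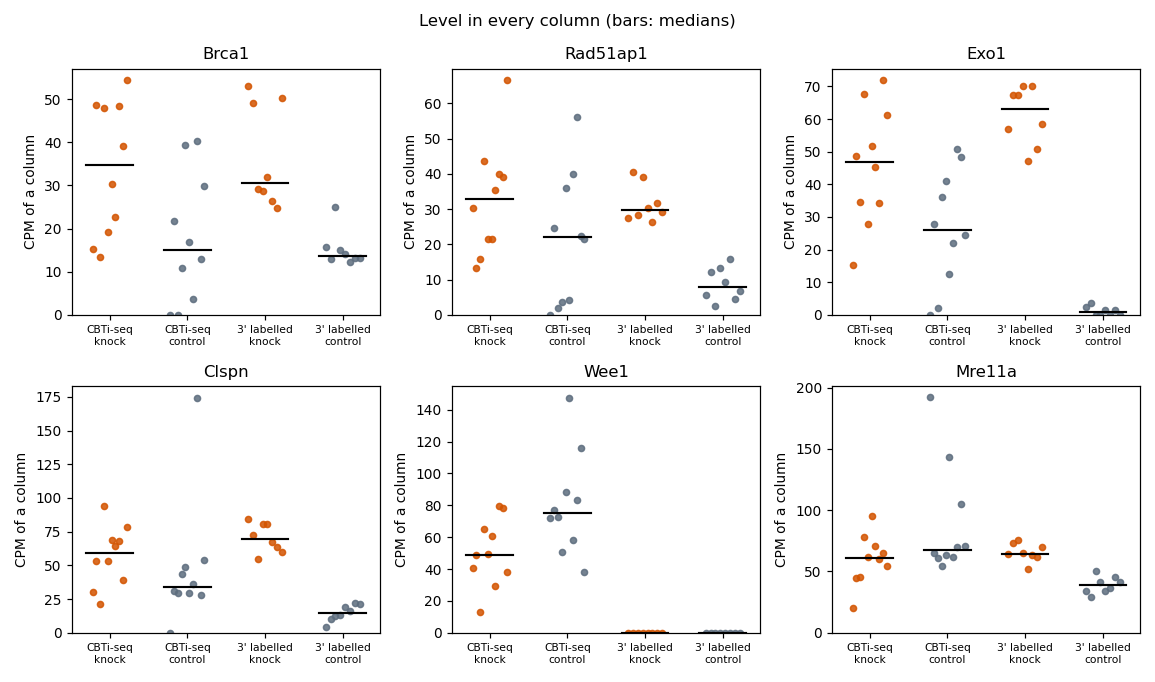
CPM of Brca1, Rad51ap1, Exo1, Clspn, Wee1 and Mre11a in every column (points), with medians (bars), for CBTi-seq knock and control columns and the 3' libraries labelled knock and labelled control. Exo1 and Clspn are apart in the 3' libraries and overlap in CBTi-seq, and Wee1 is at 0 in all 16 columns of the 3' libraries.

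Brca2, a mediator of homologous recombination, was, like Exo1, just inside the fold in CBTi-seq. Its columns ran from 15.1 over 29.4 to 66.6 CPM in knock and from 0 over 24.7 to 53.6 CPM in control, which overlapped, and the log2 ratio was 0.57 (0.18 to 0.96). Its 3' level was under 20 CPM, at 18.7 CPM in the library labelled knock and 7.92 CPM in the library labelled control. Palb2, the bridge between BRCA1 and BRCA2, was under 20 CPM in both assays. It had 43 counts in CBTi-seq knock columns and 22 in control columns, a log2 ratio of 1.11 (0.33 to 1.92). Bard1, the obligate partner of BRCA1, had a CBTi-seq log2 ratio of -0.01 (-0.52 to 0.50) and 1.80 (1.29 to 2.34) in the 3' tables, both under 20 CPM.

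Xrcc2, Rad51c and Xrcc3 also act in homologous recombination. Xrcc2 had a CBTi-seq log2 ratio of -0.44 (-0.83 to -0.06), from 27.7 CPM in knock columns and 37.5 CPM in control columns. By the 3' method Xrcc2 stood at 3.71 CPM in the library labelled knock and 6.79 CPM in the library labelled control, and Rad51c at 5.89 and 11.9 CPM in the same order. Both were under 20 CPM there, and Xrcc3 had no 3' count. Rad51c and Xrcc3 were under 20 CPM in CBTi-seq as well, with log2 ratios of 0.18 (-0.55 to 0.92) and 0.97 (-0.30 to 2.33). Rbbp8, the factor that starts resection, ran from 10.1 over 38.1 to 112.8 CPM in CBTi-seq knock columns and from 0 over 50.0 to 83.9 CPM in control columns, with a log2 ratio of 0.09 (-0.20 to 0.38). Blm, a helicase that dissolves recombination intermediates, had a CBTi-seq log2 ratio of -0.07 (-0.49 to 0.35).

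The Fanconi genes, which act on crosslinked DNA and stalled forks, differed little in CBTi-seq. Their sum was 65.6 CPM in CBTi-seq knock columns and 74.1 CPM in control columns, a log2 ratio of -0.18 (-0.43 to 0.08). The 3' sum was 40.1 CPM in the library labelled knock and 30.3 CPM in the library labelled control, a log2 ratio of 0.40 (0.16 to 0.65). Fancd2 and Fanci encode the pair that is marked with ubiquitin at the lesion. In CBTi-seq Fancd2 ran from 4.28 over 17.5 to 46.2 CPM in knock columns and from 2.68 over 14.6 to 52.5 CPM in control columns. Fanci ran from 6.53 over 15.6 to 39.8 CPM in knock columns and from 0 over 23.3 to 35.2 CPM in control columns. Both overlapped almost fully, with log2 ratios of 0.16 and -0.29 and intervals that included 0. Brip1, a helicase that binds BRCA1, ran from 22.6 over 27.4 to 35.1 CPM in the 3' library labelled knock and from 7.51 over 19.9 to 34.3 CPM in the library labelled control. Those columns overlapped, with a log2 ratio of 0.44 (0.14 to 0.74). Fanca, of the core complex, had no 3' count.

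Parp1 encodes an enzyme that binds strand breaks and signals them by poly-ADP-ribose. In CBTi-seq it ran from 95.9 over 129.0 to 174.1 CPM in knock columns and from 0 over 105.8 to 171.2 CPM in control columns. The only column without a count was control column 1, and the log2 ratio was 0.22 (0.03 to 0.41). Its 3' log2 ratio was 0.14 (-0.16 to 0.44). Msh6, which acts in the recognition of mismatches, had a CBTi-seq log2 ratio of 0.06 (-0.24 to 0.36). By the 3' method it had 61 counts in the library labelled knock and 13 in the library labelled control.

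Of the 24 genes under 20 CPM in the 3' tables, 3 had no count there. Among the rest, the log2 ratios ran from -1.82 for Hus1 to 2.57 for Atm, so the common direction of the 13 genes above the limit did not extend to all 37. Of the 34 with a count, 16 were higher by 1.5-fold, where 40.2% of all genes with a count were, and 4 lower, where 25% were. Those 4 were Hus1, Smarcal1, Rad51c and Xrcc2.

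Set side by side, 12 genes reached 20 CPM in both assays. All 12 had a 3' ratio above 0, so the side of the CBTi-seq ratio decides the tally, which was 7 on the same side of 0 and 5 on opposite sides. Rrm2 goes against the 3' labels, and with them exchanged the tally would be 5 and 7. For Topbp1 and Mre11a the opposite sides were beyond counting error in both assays, but with TMM factors the CBTi-seq interval of Topbp1 ran from -0.46 to 0.0071 and included 0. The libraries were scaled separately, and each assay had its own knock and control columns. Brca1, Rad51ap1, Exo1, Clspn, Tipin, Rad17 and Parp1 were above 0 in both. The 3' ratio was larger than the CBTi-seq ratio for the first 6 of these, and smaller for Parp1.

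**Figure D4:**
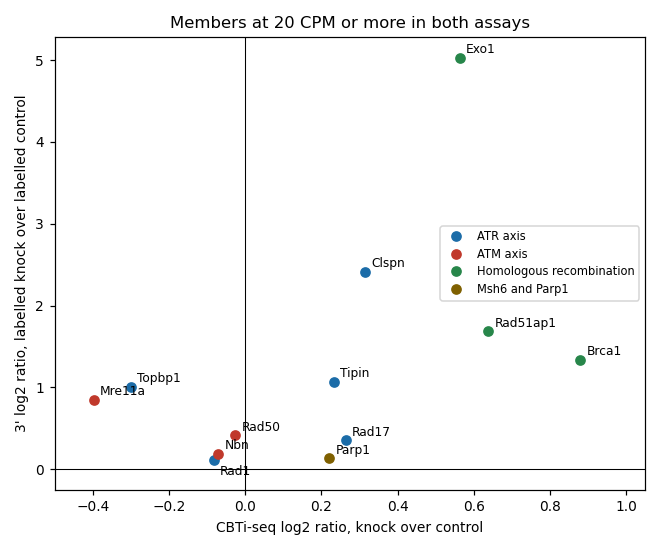
Log2 ratio of the 12 genes that reached 20 CPM in both assays, CBTi-seq (x axis, knock over control) against the 3' tables (y axis, labelled knock over labelled control), coloured by role. All 12 lie above 0 on the y axis, and 5 of them, Topbp1, Mre11a, Rad1, Nbn and Rad50, lie below 0 on the x axis.

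The listed genes, like most genes, had a higher CPM in CBTi-seq than in the 3' tables. Over all columns of an assay, 35 of the 37 had a higher CPM in CBTi-seq, where 79.2% of all 20187 genes with a count did, again with tables scaled separately. Wee1 stood at 67.2 CPM in CBTi-seq and was at least 363-fold higher there, against the 3-count floor over the 3' columns of 0.185 CPM. Rad9a stood at 155.0 CPM in CBTi-seq and 0.493 CPM in the 3' tables. With each column thinned to 50000 counts, the number of listed genes with a count ran from 20 over a median of 26.5 to 30 in CBTi-seq knock columns and from 22 over 28 to 31 in 9 control columns, 1 shallower control column being left out. It ran from 16 over 19 to 22 in the 3' library labelled knock and from 9 over 14 to 17 in the library labelled control. Without thinning, the medians were 36 in CBTi-seq knock, 36 in CBTi-seq control, 33 in the 3' library labelled knock and 31 in the library labelled control. At equal depth the CBTi-seq groups overlapped in this number, and those of the 3' libraries overlapped at their edges, with the higher numbers in the library labelled knock.

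The other genes of checkpoint and repair pathways, 114 in 6 lists, were read in the same way. In CBTi-seq 71 were at 20 CPM or more, with 5 higher and 5 lower by 1.5-fold, where 3.54% and 10.2% of all genes were, and a median log2 ratio of 0.03. Among the higher ones, Rad51b, which acts in homologous recombination, had a log2 ratio of 0.73, Xrcc6, the Ku70 subunit of end joining, 0.77, Pkmyt1, a kinase that like WEE1 restrains CDK1, 0.70, and Uimc1, which guides BRCA1 to ubiquitin at breaks, 0.64. On the lower side were Wdr48, a cofactor of the deubiquitinase USP1, at -0.87, Cdc25a, a phosphatase that opposes WEE1, at -0.73, and Ercc4, the XPF excision nuclease subunit, at -0.67.

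By the 3' method 34 of the 114 were at 20 CPM or more, 17 higher and 2 lower by 1.5-fold, where 30.5% and 15% of all genes were, with a median log2 ratio of 0.56. Of the 34, 7 reached the limit through the library labelled knock alone, 6 of them higher by the fold, and of the 27 at the limit in each library 11 were higher and 2 lower. The fork checkpoint list had 7 of 9 higher, among them Cdc25b, another such phosphatase, at 1.84 and Rfc5, a subunit of the clamp loader, at 1.67. Fance, of the Fanconi core complex, had a log2 ratio of 2.63, Usp1 1.22, Lig1, the replicative DNA ligase, 1.81, and Paxx, an end-joining factor, 2.16. H2afx, the histone that ATM and ATR phosphorylate, had a log2 ratio of 1.11. The excision repair genes Xpa and Cetn2 had log2 ratios of 1.65 and 1.38, and Aptx, which repairs blocked ends, 0.63. The lists differed. Break signalling and end joining had a median of -0.26, with 4 of 9 genes above 0 and 5 below. Of those 9, 3 were higher and 1 lower by the fold. Homologous recombination had 0.14, with 2 of 4 below 0. The Fanconi list ran from -0.90 to 2.63 over 3 genes, 1 of them below 0. Mismatch and base excision had 0.56 and nucleotide excision 0.31, with 4 of 4 and 5 of 5 above 0. Of all genes, 58.8% were above 0 and 41.2% below.

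**Figure D5:**
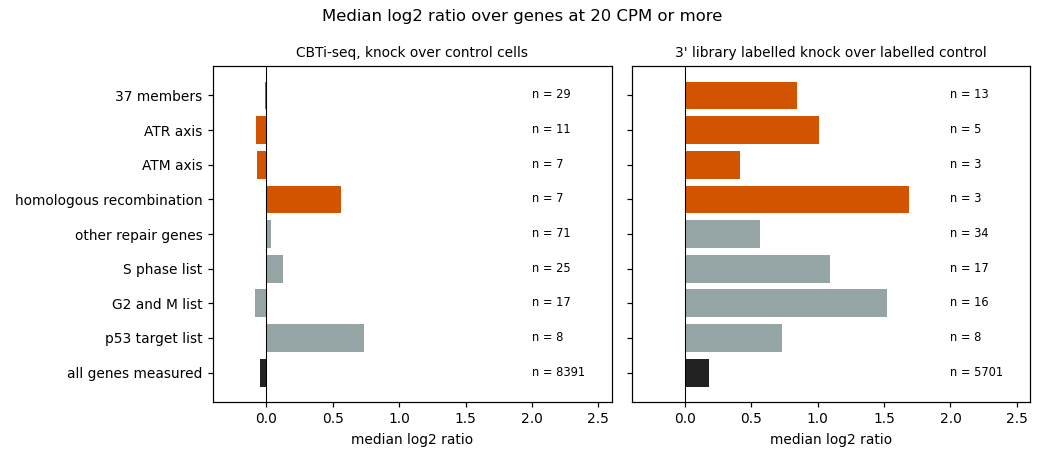
Median log2 ratio over the genes at 20 CPM or more (n beside each bar) of the listed genes, 3 of their role groups, the other repair genes, 3 context lists and all genes, in CBTi-seq (left, knock over control) and the 3' tables (right, labelled knock over labelled control). In CBTi-seq the homologous recombination and p53 target bars are the long ones, at 0.56 and 0.74. In the 3' tables every bar shown lies above all genes at 0.18. The bar of other repair genes joins lists below that value (break signalling and end joining at -0.26, other homologous recombination at 0.14) with lists above it. There the homologous recombination bar rests on 3 genes that reached 20 CPM in the library labelled knock alone. So did 5 of 13 listed, 2 of 5 ATR axis, 7 of 34 other repair, 7 of 17 S phase and 8 of 16 G2 and M genes.

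Cell cycle genes were also higher in the 3' library labelled knock. There the S phase list summed to 1641 CPM in the library labelled knock and 669.4 CPM in the library labelled control, and the G2 and M list to 1911 and 639.3 CPM in the same order. Higher by 1.5-fold were 15 of 17 S phase genes and 16 of 16 G2 and M genes, where 30.5% of all genes were, and 7 and 8 of these reached 20 CPM in the library labelled knock alone. In CBTi-seq the S phase list summed to 2306 CPM in knock columns and 2084 CPM in control columns, a log2 ratio of 0.15 (0.10 to 0.19). Its columns ran from 1256 over a median of 1922 to 3468 CPM in knock, and from 989 over 1878 to 3241 CPM in control. These overlapped. The highest knock value was that of column 10, the deepest knock column, and whether the direction of the ratio rests on it was not tested. The G2 and M list had a log2 ratio of 0.07 (0.04 to 0.11), also with overlapping columns. Among these lists the p53 targets had the highest CBTi-seq median, 0.74, with 1641 CPM in knock columns and 987.6 CPM in control columns and 5 of 8 genes higher by 1.5-fold, where 3.54% of all genes were. The part of these lists in the ratios of the checkpoint and repair genes was not tested.

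Across single columns the sum of the listed genes varied with the S phase sum in the CBTi-seq knock columns, 1 of the 4 groups. Over the 10 CBTi-seq knock columns Pearson's r was 0.84 and Spearman's rho 0.72, and r was 0.54 without the 2 columns farthest from the median S phase sum. Over the 10 control columns r was 0.26 and rho 0.25. Over the 8 columns of the 3' library labelled knock r was 0.02 and rho 0.12, and over the 8 of the library labelled control r was 0.26 and rho 0.29. Against the G2 and M sum, r was 0.10 and rho 0.28 in CBTi-seq knock columns and 0.67 and 0.58 in control columns. In the 3' libraries they were 0.49 and 0.38 in the one labelled knock and 0.72 and 0.71 in the one labelled control. Without the 2 columns farthest from the median G2 and M sum, r was 0.66, 0.34, 0.93 and 0.42 in the same order. The columns of a group share a library and the points share each column's total as divisor. In the knock columns the listed sum also went with the total count of a column, with r of 0.69, and knock column 10 had the highest total, S phase sum and listed sum of that group.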

How the data were processed

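The tables that the authors deposited hold unnormalized counts, whole numbers for each gene in each column. Gene symbols name the rows of CBTi-seq, whose table is named for UMIs (molecular identifiers), and Ensembl IDs those of the 3' tables. Tools named are STAR 2.7.11b, Picard and FastQC, per the submitters' processing notes, which also name the builds GRCm38 and GRCh38 without a role. How genes were counted, with or without strand, the length of the UMIs, and whether 3' counts are of reads or of UMIs were not given in the sources used here. Without strand, reads of overlapping genes cannot be told apart: 21 listed genes overlap a gene on the other strand and 8 one on the same strand.

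Of 55402 Ensembl IDs, 55141 matched GENCODE vM21 (GRCm38), and unmatched rows held 0.0329% of counts in the 3' library labelled knock and 0.0194% in the one labelled control. In CBTi-seq 22 symbols read as dates; they held 0.206% of counts and stayed in the totals. All columns were kept and no doublet caller was run. Each group's columns were added up and scaled to CPM by the total of all gene counts, with exact Poisson intervals for sums and exact conditional (Clopper-Pearson) intervals for ratios, at 95%. They cover counting error only, and PCR reads without identifiers are not independent molecules. With 1 sample a group no test was made and there is no replicate check. The members and lists were chosen with earlier results of these data known. A listed gene is described with its columns where it reached 1.5-fold at 20 CPM or more in an assay, or had among the 2 highest counts of its role group; Brca2 and the others named beside these account for the remaining members. Of other repair genes, up to 2 per list and assay with the largest ratios past 1.5-fold are named, and some genes within these rules are not reported here. Alternatives were the factors of TMM (edgeR 4.0.16) and of median of ratios (DESeq2 1.42.0), totals that leave out mitochondrial and ribosomal protein genes, equal weight per column, thinning to 50000 counts, limits of 10 and 50 CPM and none, 2-fold, each column left out, and a correction for UMI collisions with 1024 or 700 possible UMIs. The calculation was tested on simulated data. Other software was R 4.3.3, scipy 1.17.1, pandas 2.3.3, numpy 2.4.6, matplotlib 3.10.9 and Python 3.11.15. Promoters are RefSeq sequences of GRCm38.p6.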

Additional observations from a re-analysis of the deposited data

Results flagged for a closer look

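Topbp1 and Mre11a lay on opposite sides of 0 in the assays, each beyond counting error. For Topbp1 the log2 ratio was -0.30 in CBTi-seq (knock over control) and 1.01 in the 3' tables (labelled knock over labelled control). For Mre11a it was -0.40 in CBTi-seq and 0.85 in the 3' tables. The difference between assays was not tested, since each has 1 sample a group, and Rrm2 goes against the 3' labels; with those labels exchanged, both genes would lie on the same side in the assays. With TMM factors the CBTi-seq interval was -0.46 to 0.0071 for Topbp1, which includes 0, and -0.58 to -0.063 for Mre11a. With each column left out in turn, the CBTi-seq ratio stayed between -0.36 and -0.19 for Topbp1 and between -0.46 and -0.26 for Mre11a, and the 3' ratio between 0.87 and 1.29 for Topbp1 and between 0.70 and 0.92 for Mre11a.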

How the results depend on the processing

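No named ratio past the fold changed sign, while the CBTi-seq median of the listed genes, near 0, lay on both sides of it (-0.15 to 0.11). The listed genes had a CBTi-seq median log2 ratio of -0.01, with 2 higher and 1 lower by 1.5-fold, and a 3' median of 0.85, with 7 higher and 0 lower. The other repair genes had 5 higher and 5 lower in CBTi-seq, and a 3' median of 0.56, with 17 higher and 2 lower. Both 3' medians include genes that reached 20 CPM through the library labelled knock alone, 5 of 13 listed and 7 of 34 other repair genes. With TMM factors 4 listed genes were higher in CBTi-seq, and the 3' medians were 0.69 (listed) and 0.41 (other repair). Median-of-ratios factors gave 4, 0.69 and 0.41. Leaving mitochondrial and ribosomal protein genes out of the totals gave 3' medians of 0.50 and 0.34, with 4 other repair genes lower. Equal weight per column gave 2 listed and 9 other repair genes lower in CBTi-seq, and a 3' median of 0.46 for the other repair genes. Thinning gave a CBTi-seq median of -0.15, with 1 listed gene higher and 4 lower and 9 and 11 other repair genes; in the 3' tables it gave 2 listed and 1 other repair gene lower, and single ratios of 1.49 for Topbp1 and 2.10 for Tipin.

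A limit of 10 CPM gave 8 other repair genes higher in CBTi-seq, and in the 3' tables a median of 1.003 with 12 listed and 30 other repair genes higher. A limit of 50 CPM left 0 listed genes higher and 0 other repair genes lower in CBTi-seq, 3' medians of 0.41 and 0.33, 0 listed and 6 other repair genes higher in the 3' tables, and 0 listed genes on the same side in both assays; fewer genes are read at that limit. With every gene that had a count, 4 listed genes were higher in CBTi-seq, with 13 other repair genes higher and 12 lower. In the 3' tables that gave medians of 0.43 and 0.72, with 16 listed genes higher and 4 lower, 60 other repair genes higher and 14 lower, and 16 listed genes on the same side in both assays, beside 7. At 2-fold, 0 listed and 0 other repair genes were higher or lower in CBTi-seq, and 0 other repair genes were lower in the 3' tables.

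With each column left out in turn, the CBTi-seq median of the listed genes ran from -0.086 to 0.11, with 1 to 5 higher and 1 to 2 lower, and for the other repair genes 2 to 7 were higher and 3 to 7 lower. The 1 was reached without knock column 10 or without control column 3, 4 or 6, and the 5 without control column 8; the 3' median ran from 0.62 to 0.92. The other repair genes kept 2 to 4 lower in the 3' tables, and Exo1 had a 3' log2 ratio of 6.10 without column 2 of the library labelled control. The correction for UMI collisions gave CBTi-seq medians of -0.011 and 0.0042 for the listed genes, with 2 and 3 genes higher, for the larger and the smaller number of UMIs. The cause of these moves was not tested beyond what each setting builds in. No paired analysis was possible because the labels give no replicate numbers and each group is 1 sample. Of the 37 listed genes, 24 were under 20 CPM in the 3' tables, where their counts limit what can be read.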
